A study of Homo sapiens with 30 samples.

Results

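Open chromatin was compared between 2 populations of human cells that spent days 3 and 4 in the same telencephalon medium but reached it by different routes. The population aNE_T had passed through anterior neural ectoderm on day 2 and the population pNE_T through posterior neural ectoderm. The members are the regions of chromosomes 1 to 22 at which only 1 of these 2 peak lists had a peak. Overlapping peaks (1 bp or more) of all 10 lists of the series were joined into merged regions, and a list was called open at each merged region that held any of its peaks. Of 476170 merged regions, 119463 were members: 52029 were open in aNE_T and not in pNE_T (aNE_T-only regions), and 67434 were open in pNE_T and not in aNE_T (pNE_T-only regions).

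The assay was OmniATAC-seq, in which the transposase Tn5 cuts into accessible DNA, on 50000 wild-type H1 cells per library. H1 is an established human embryonic stem cell line. The series has 30 libraries in 10 groups of 3, and each group is given as 1 list of peak positions without scores. Differences between lists therefore have no replicate error, no test was possible, and read depth is unknown.

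All cells shared a first day of treatment toward definitive ectoderm (DE) with A8301, an inhibitor of NODAL-type receptors, the MEK inhibitor Trametinib, the WNT secretion inhibitor C59 and the BMP receptor inhibitor LDN193189. Anterior neural ectoderm (aNE) was then made for 1 day in A8301, LDN193189 and C59. Posterior neural ectoderm (pNE) was made in A8301, LDN193189, FGF2, TTNPB, which activates retinoic acid receptors, and XAV939, which dampens WNT signals by blocking tankyrase. Both media held Thiazovivin, which supports survival after replating. For the telencephalon lists each population was moved to the labels' forebrain medium, which on day 3 held XAV939, LDN193189 and FGF2; the composition on day 4 was not used here. Plating density past day 2 also followed origin, with 75000 cells per square cm on the anterior route against 150000 on the posterior route, so origin, the day 2 agents and plating density cannot be told apart. The comparison lists were undifferentiated cells (hPSC, day 0), DE (day 1), aNE and pNE (day 2), and cells of both origins moved to midbrain medium (aNE_M, pNE_M) or hindbrain medium (aNE_H, pNE_H) until day 4.

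The vertebrate neural plate is patterned along its length while it forms. Rostral cells that will build the telencephalon express homeobox factors such as OTX2, SIX3 and LHX2, and are kept from caudalizing signals. Retinoic acid, WNT and FGF signals give caudal identity, and in the hindbrain retinoic acid opens the HOX clusters, whose genes at the 3′ end of each cluster respond first. Regions bound by transcription factors are depleted of nucleosomes, which is what an ATAC-seq peak reports.

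Promoters at which the lists differed are shown first, because a start site ties the region to its gene. The 250 bases upstream of a RefSeq start are printed for 2 genes of rostral or dorsal forebrain and midbrain, OTX2 and WNT8B. The promoter at that start had a peak in aNE_T only. The same bases are printed for 4 genes of the hindbrain, HOXA2, HOXA3, HOXB1 and FGF3, where the promoter had a peak in pNE_T only. HOXA3 has 7 promoters, of which 3 had a peak in both lists, 3 in neither and 1, printed here, in pNE_T only. OTX2 has 2 promoters, and the promoter not printed had a peak in neither list. The printed promoters are a selection, and others went the other way. Both promoters of NR2F2, listed here with the hindbrain genes, had a peak in aNE_T only. The promoter of BARHL2, listed with diencephalon and midbrain genes, had a peak in pNE_T only. All sequences are from RefSeq on GRCh38.p14, 5′ to 3′ on the strand of the gene. Capitals mark the bases inside the peak of the list that was open, and lower case the bases outside it.
OTX2: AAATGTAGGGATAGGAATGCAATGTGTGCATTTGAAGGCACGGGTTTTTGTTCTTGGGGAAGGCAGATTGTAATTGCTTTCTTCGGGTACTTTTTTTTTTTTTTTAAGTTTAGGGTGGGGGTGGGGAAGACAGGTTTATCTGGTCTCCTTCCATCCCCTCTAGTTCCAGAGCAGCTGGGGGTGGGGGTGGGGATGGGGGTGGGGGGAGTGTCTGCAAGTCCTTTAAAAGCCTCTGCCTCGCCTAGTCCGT
WNT8B: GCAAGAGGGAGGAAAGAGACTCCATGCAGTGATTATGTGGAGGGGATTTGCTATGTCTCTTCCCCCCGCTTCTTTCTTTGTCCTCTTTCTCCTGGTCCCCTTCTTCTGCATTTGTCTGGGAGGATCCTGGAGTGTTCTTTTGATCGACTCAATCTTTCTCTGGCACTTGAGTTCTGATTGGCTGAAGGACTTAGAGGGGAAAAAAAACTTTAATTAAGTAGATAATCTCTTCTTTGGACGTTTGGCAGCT
HOXA2: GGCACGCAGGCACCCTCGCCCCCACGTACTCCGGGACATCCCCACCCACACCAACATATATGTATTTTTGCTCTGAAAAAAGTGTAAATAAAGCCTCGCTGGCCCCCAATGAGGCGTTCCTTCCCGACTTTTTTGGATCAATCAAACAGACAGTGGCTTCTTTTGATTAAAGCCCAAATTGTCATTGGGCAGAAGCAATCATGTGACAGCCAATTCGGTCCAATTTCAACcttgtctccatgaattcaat
HOXA3: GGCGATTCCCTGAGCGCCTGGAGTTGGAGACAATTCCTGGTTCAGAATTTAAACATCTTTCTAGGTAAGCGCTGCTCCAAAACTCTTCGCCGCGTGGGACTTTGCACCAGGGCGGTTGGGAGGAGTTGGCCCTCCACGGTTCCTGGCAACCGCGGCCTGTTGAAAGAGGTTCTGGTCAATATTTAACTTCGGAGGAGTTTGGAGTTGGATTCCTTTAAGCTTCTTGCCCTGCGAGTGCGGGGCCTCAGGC
HOXB1: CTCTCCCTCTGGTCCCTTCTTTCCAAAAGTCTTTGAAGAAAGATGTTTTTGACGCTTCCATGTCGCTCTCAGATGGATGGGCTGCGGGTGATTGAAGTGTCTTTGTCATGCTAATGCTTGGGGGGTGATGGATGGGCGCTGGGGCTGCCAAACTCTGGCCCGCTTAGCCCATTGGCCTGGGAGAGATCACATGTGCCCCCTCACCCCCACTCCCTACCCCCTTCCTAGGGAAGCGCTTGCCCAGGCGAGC
FGF3: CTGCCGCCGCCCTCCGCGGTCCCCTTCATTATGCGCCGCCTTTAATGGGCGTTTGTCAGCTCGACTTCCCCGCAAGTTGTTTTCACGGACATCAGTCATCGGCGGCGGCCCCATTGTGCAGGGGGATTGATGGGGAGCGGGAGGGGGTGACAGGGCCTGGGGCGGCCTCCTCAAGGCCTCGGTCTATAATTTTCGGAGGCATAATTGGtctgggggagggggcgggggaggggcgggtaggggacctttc

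The OTX2 stretch lies at chr14:56805668-56805917 on the minus strand and was covered entirely by an 873 bp peak of aNE_T, with the nearest pNE_T peak 2338 bp away from the promoter window. The WNT8B stretch lies at chr10:100462759-100463008 on the plus strand under a 739 bp peak of aNE_T, and the nearest pNE_T peak was 14366 bp away. On the posterior side, the HOXA2 stretch lies at chr7:27102684-27102933 and the HOXA3 stretch at chr7:27122373-27122622, both on the minus strand. Their pNE_T peaks were 458 and 491 bp wide, and the nearest aNE_T peaks were 300 and 467 bp away. The HOXB1 stretch at chr17:48531012-48531261, minus strand, lay under a 796 bp peak with the nearest aNE_T peak 2282 bp away. The FGF3 stretch at chr11:69819417-69819666, minus strand, had 208 of its 250 bases inside a 344 bp peak, and an aNE_T peak lay 112 bp from the promoter window.

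The lists as wholes overlapped in 129438 regions, so their Jaccard index, the regions open in both divided by those open in either, was 0.52. Of the 248901 regions open in either list, 20.9% were aNE_T-only regions and 27.1% were pNE_T-only regions. The pNE_T list was longer, with 207744 peaks on chromosomes 1 to 22 against 191380 in aNE_T, and it reached narrower peaks, with a minimum of 115 bp against 122 bp and a median of 287 bp against 302 bp. Reduced to its 191380 widest peaks, pNE_T had 57842 regions of its own against 57198 in aNE_T, and the Jaccard index was 0.519. Equal list size brings these numbers together by construction, so they say nothing on which list is more open.

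Members were mostly narrow. In aNE_T, 54.5% of open regions whose widest peak was under 200 bp were exclusive, and the share was 31.2% from 200 to 400 bp, 12.7% from 400 to 800 bp and 1.95% at 800 bp or more. In pNE_T the shares were 55.6%, 35.4%, 20.9% and 6.83%. The wider the peak, the less often it was exclusive, and at 800 bp or more 1754 pNE_T-only regions stood against 516 aNE_T-only regions. Most members were also clear of the other list: 46255 aNE_T-only and 61386 pNE_T-only regions had no peak of the other list within 500 bp.

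The other 8 lists placed the members differently along the differentiation. The DE list of day 1 was open at 60.2% of aNE_T-only regions (Wilson 95% interval 59.8% to 60.7%, counting error only) and at 18.3% of pNE_T-only regions (18% to 18.5%). In hPSC the shares were 42.9% and 15.2%. The anterior list of day 2 was open at 44% of aNE_T-only and 10.3% of pNE_T-only regions, and the posterior list of day 2 at 45.2% and 23.2%. Over all merged regions these 4 lists were open at between 32% and 46.9%, so the pNE_T-only regions lay below the level of all regions in each of them. Counted together, 63.6% of pNE_T-only regions and 23.3% of aNE_T-only regions were closed in every list of days 0 to 2, against 3.96% of the regions open in both. The share was 35% over all merged regions, above that of aNE_T-only and below that of pNE_T-only regions.

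**Figure D1:**
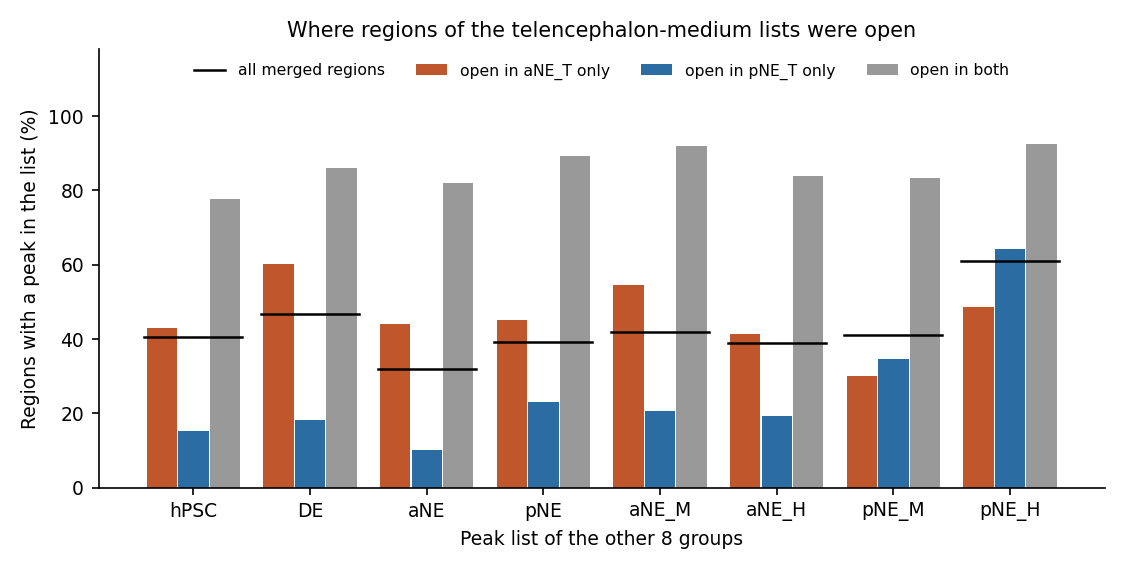
Share of regions with a peak in each of the other 8 lists (vertical axis, percent) for regions open in aNE_T only, in pNE_T only and in both; the black line is the share over all 476170 merged regions. Before day 4 the share is higher for aNE_T-only than for pNE_T-only regions in each of the 4 lists, and it is lower in pNE_M and pNE_H.

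Most members had a peak in another list as well. Of the aNE_T-only regions 6155 (11.8%) had a peak in no other list, and of the pNE_T-only regions 16390 (24.3%), against 0.772% of regions open in both and 4.94% of all regions. At the other end, 3914 aNE_T-only regions (7.52%) were open in all 8 other lists, so pNE_T alone lacked a peak there, and 961 pNE_T-only regions (1.43%) were likewise missing from aNE_T alone. Of regions open in both 60.9% were open in all 8 others, and of all regions 17.7%.

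Cells of both origins were also grown in midbrain and hindbrain medium, which gives lists that did not enter the choice of members. In midbrain medium, 30.7% of aNE_T-only regions were open in the aNE-derived list alone and 6.04% in the pNE-derived list alone, a difference of 24.6 points. For pNE_T-only regions the shares were 7.73% and 21.8%, a difference of -14 points. Over all merged regions they were 13.1% and 12.3%, and over regions open in both telencephalon lists 11.5% and 3.07%. In both directions the midbrain lists thus differed mostly to the same side as the telencephalon lists. The lean toward aNE_M was not particular to members. Where the midbrain lists differed, aNE_M was the open list at 83.6% of aNE_T-only regions and at 79% of regions open in both. At pNE_T-only regions it was the open list at 26.2%.

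In hindbrain medium the pNE-derived list is far longer than the others, with 302355 peaks on chromosomes 1 to 22. The pNE_T-only regions were open in pNE_H alone at 47.5% and in aNE_H alone at 2.47%, against 28.5% and 6.38% over all regions. Of the aNE_T-only regions, 17.8% were open in pNE_H alone and 10.4% in aNE_H alone, a difference of -7.46 points. With all 10 lists at the size of the shortest, 162041 peaks, that difference turned to 14.1 points, and it was -1.39 over all regions and -29.8 for pNE_T-only regions.

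Origin was kept in all 3 media at a minority of members. The 3 aNE-derived lists were open and the 3 pNE-derived lists closed at 3037 aNE_T-only regions (5.84%), and the reverse held at 11092 pNE_T-only regions (16.4%). Both numbers depend on the long pNE_H list; with all 10 lists at 1 size, an alternative chosen after seeing the data, they were 4928 (9.96%) and 7274 (14.6%). As deposited, the first set had been open in DE at 72.4%, in aNE at 57.1% and in pNE at 63.9%. For the second set the shares were 13.2% in DE, 11.3% in aNE and 24.7% in pNE.

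Members lay away from gene ends more often than shared regions. Within 1 kb of an annotated gene end lay 8.8% of aNE_T-only and 7.44% of pNE_T-only regions, against 20.1% of regions open in both and 11.2% of all regions. The pNE_T-only regions were farther from coding genes, with 25.3% outside a coding gene and more than 100 kb from its nearest end against 17% of aNE_T-only regions, and 47.1% against 52.8% inside a coding gene body. For all regions these shares were 20.1% and 51%, between those of the members.

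The balance also differed between chromosomes. There were 0.724 pNE_T-only regions per aNE_T-only region on chromosome 19 and 1.84 on chromosome 4, the lowest and the highest of the 22. Over the 22 chromosomes this ratio had a Spearman correlation of -0.894 with the number of coding genes per Mb, as deposited and at equal list size. The chromosomes share the same 2 lists, so the value is a description.

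**Figure D2:**
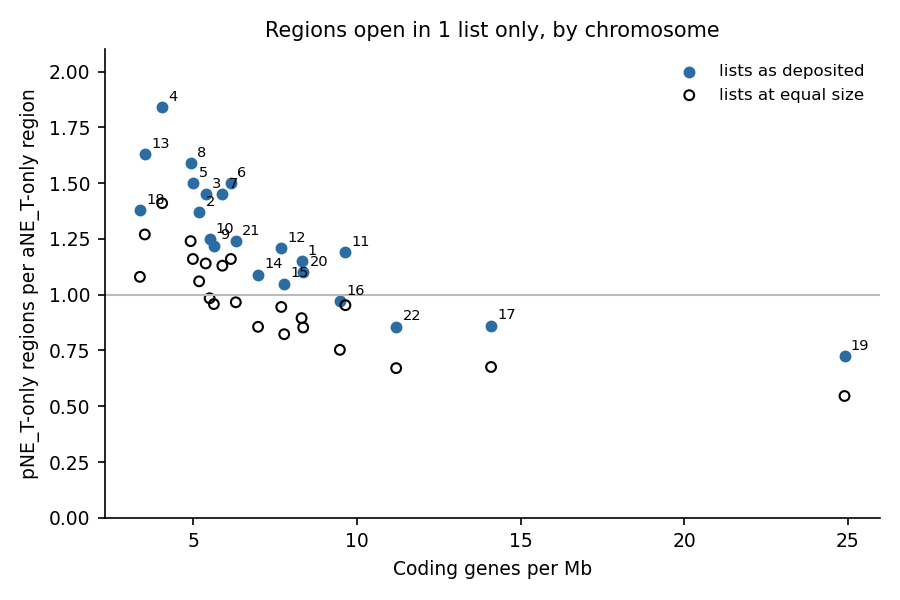
pNE_T-only regions per aNE_T-only region (vertical axis) against coding genes per Mb (horizontal axis) for chromosomes 1 to 22, with the lists as deposited (filled, numbered) and at equal size (open). The ratio is highest on chromosome 4 and lowest on chromosome 19, the chromosome with the most genes per Mb.

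To find the genes at which members cluster, exclusive regions were counted from 50 kb before to 50 kb after each of 19122 coding genes. A gene was called toward a list that had at least 3 exclusive regions there and at least 2 times as many as the other list. By this rule 4025 genes (21%) were called toward aNE_T and 3535 (18.5%) toward pNE_T. At equal list size 5522 (28.9%) and 2325 (12.2%) were called. This setting shortens pNE_T alone, so no aNE_T call could be lost by construction; of the 3535 pNE_T calls 2325 (65.8%) were kept. Long genes were called mostly toward pNE_T, 35% of the 739 genes over 300 kb against 4.33% toward aNE_T, so lists of long genes are given beside that share.

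The calls recurred in part in midbrain medium. Of the 4025 genes called toward aNE_T, 48.6% were called toward aNE_M and 6.31% toward pNE_M, against 30.2% and 12% of all genes. Of the 3535 called toward pNE_T, 26.1% were called toward pNE_M and 17.8% toward aNE_M. In hindbrain medium the longer pNE_H list took most calls: 62.3% of the genes called toward aNE_T were called toward pNE_H and 2.56% toward aNE_H, and of those called toward pNE_T 85.8% and 0.622%. Of all genes 67.6% were called toward pNE_H and 1.6% toward aNE_H. With all 10 lists at 1 size, 36.8% of the genes called toward aNE_T were called toward aNE_H and 7.6% toward pNE_H, and of those called toward pNE_T 14% and 27.3%. The shares over all genes were then 22.7% toward aNE_H and 13.5% toward pNE_H.

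**Figure D3:**
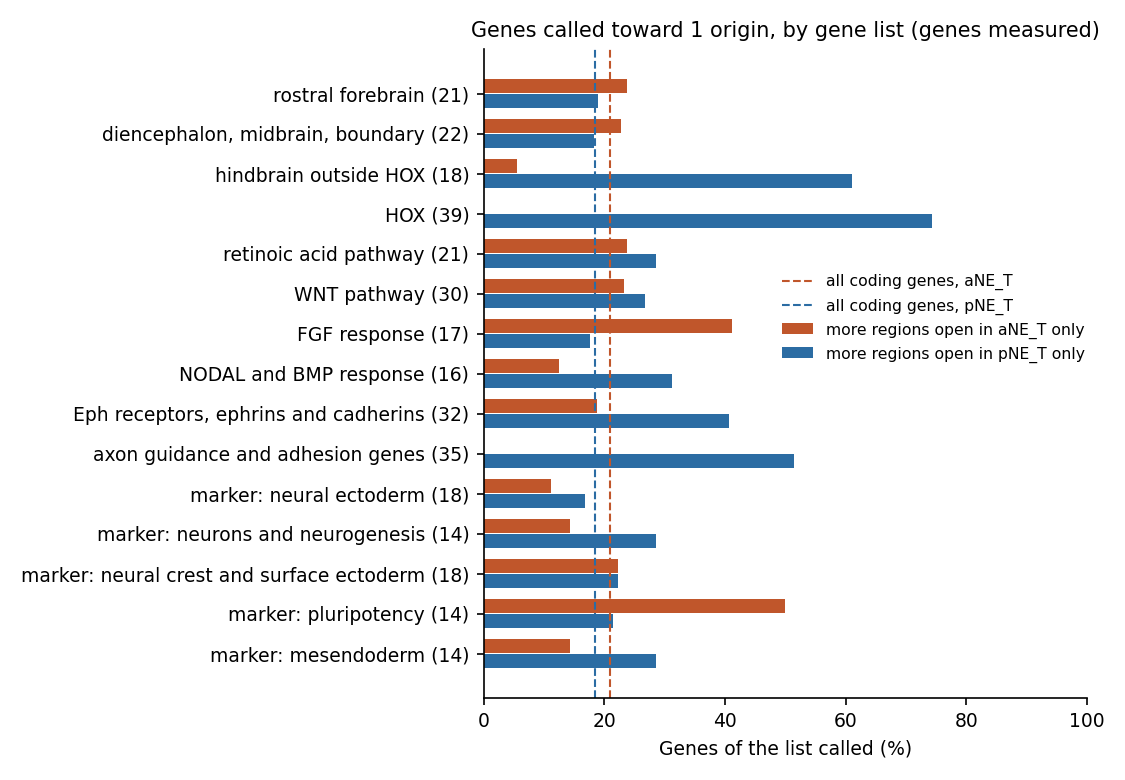
Percent of the measured genes of each list (numbers in brackets) called toward aNE_T and toward pNE_T in windows of 50 kb; the dashed lines are the shares over all 19122 coding genes, 21% and 18.5%. HOX genes and hindbrain segment genes are far to the pNE_T side, and pluripotency and FGF response genes to the aNE_T side.

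HOX genes, which specify position along the hindbrain and trunk, stood on the posterior side. Of 39 HOX genes 29 were called toward pNE_T (74.4%) and 0 toward aNE_T, beside 18.5% and 21% of all genes. The median was 4 more pNE_T-only than aNE_T-only regions per window, against 0 over all genes. At equal list size 21 were called toward pNE_T and 1, HOXD13, toward aNE_T; the calls lost were those of HOXA13, HOXD3, HOXD4 and HOXD8 to HOXD12. Windows of neighbouring HOX genes share regions, so the genes of a cluster are not separate counts. In windows of 20 kb the number toward pNE_T was 16. Between the midbrain lists 36 were called toward pNE_M and 1, HOXC13, toward aNE_M, or 25 and 0 with all 10 lists at 1 size, where 11% and 25.4% of all genes were called. Between the hindbrain lists 39 were called toward pNE_H and 0 toward aNE_H, against 67.6% and 1.6% of all genes, or 22 and 1 against 13.5% and 22.7% with all 10 lists at 1 size. HOXB4, a gene of the caudal hindbrain, had 2 aNE_T-only and 12 pNE_T-only regions. The HOXB4 window held 23 open regions in aNE_T, 22 in aNE_M and 23 in aNE_H. In pNE_T it held 33, in pNE_M 34 and in pNE_H 38. HOXB4 was picked by its aNE_T and pNE_T regions, so these lists are no separate evidence for it. The counts are also not adjusted for the longer pNE_H list. The earlier lists had 34 in hPSC, 28 in DE, 23 in aNE and 24 in pNE.

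By cluster, the HOXA genes held 3 aNE_T-only, 8 pNE_T-only and 19 shared regions. HOXB had 5, 12 and 31, HOXD 3, 7 and 22, and HOXC 4, 5 and 24. The largest excess of pNE_T-only regions among the clusters and their flanks of 200 kb lay outside the genes, from the 3′ end of the HOXA cluster toward SKAP2, a gene for an adaptor protein. That flank, chr7:26892993-27092992, held 2 aNE_T-only and 21 pNE_T-only regions (19 at equal size), and 7 shared. Peaks covered 3624 bp of it in aNE_T, 3717 in aNE_M and 2886 in aNE_H, against 9741 bp in pNE_T, 8735 in pNE_M and 13697 in pNE_H. Before day 4 the covered length was 4289 bp in hPSC, 5378 in DE, 5551 in aNE and 6971 in pNE. Of its 21 pNE_T-only regions 10 were also open in pNE_M and 14 in pNE_H, but 1 in aNE_M, 1 in aNE_H, 5 in aNE and 7 in pNE.

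**Figure D4:**
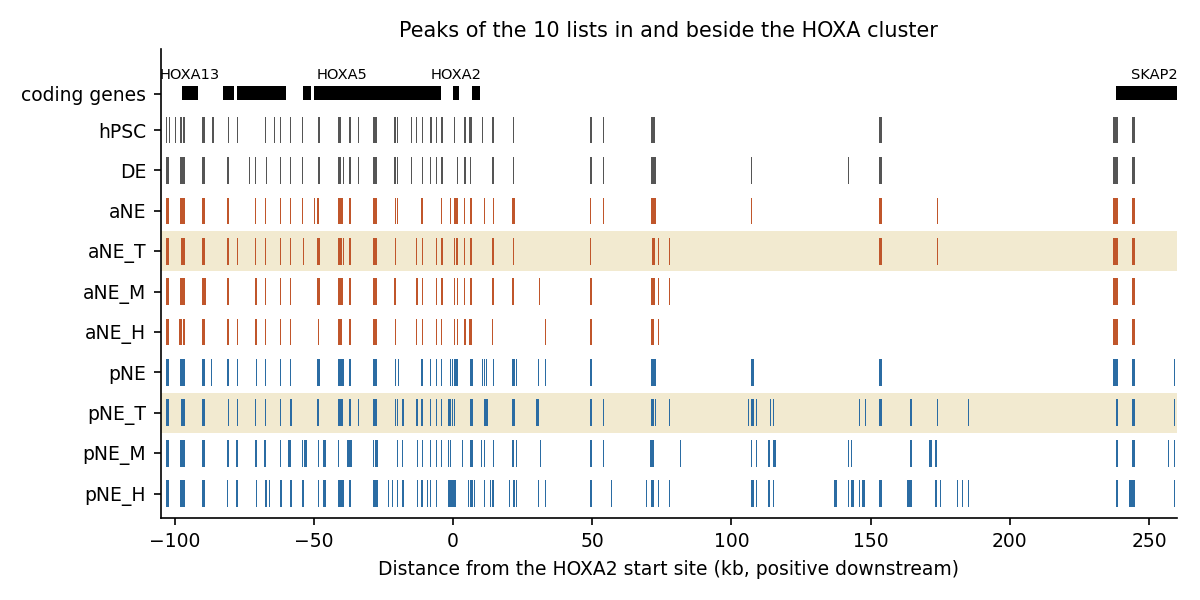
Peaks of the 10 lists (1 line each, aNE_T and pNE_T shaded) by distance from the HOXA2 start site in kb, with coding genes as black bars and positive values toward SKAP2. Between the HOXA cluster and SKAP2 the 3 pNE-derived day 4 lists have many peaks where the 3 aNE-derived lists have few, and 67 peaks of pNE_T fall in the plotted span against 39 of aNE_T.

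Most HOX promoters did not differ between the lists. Of 27 promoter windows (250 bases before to 50 after a RefSeq start) of 20 HOX genes, 12 had a peak in both and 11 in neither, while 4 had a peak in pNE_T only and 0 in aNE_T only, against 1.74% and 2.33% of the 21155 promoters of all coding genes. The 4 were of HOXA2, HOXA3 (1 of its 7), HOXB1 and HOXD4. Each of these 4 promoters had a peak in pNE_T, pNE_M and pNE_H and in none of aNE_T, aNE_M and aNE_H. Earlier lists differed: at HOXB1 all 4 lists of days 0 to 2 had a peak, while at HOXA2 pNE alone did. The HOXD4 peak was lost at equal list size.

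Hindbrain segment genes outside the clusters were also called toward pNE_T, 11 of 18 (61.1%) against 1 toward aNE_T (5.56%), and 11 and 2 at equal size. Over all genes 18.5% and 21% were called, or 12.2% and 28.9% at equal size. Between the midbrain lists 5 were called each way, and with all 10 lists at 1 size 2 were called toward the aNE-derived and 4 toward the pNE-derived list in midbrain and in hindbrain medium alike. MEIS2, a cofactor of HOX proteins, had 6 aNE_T-only and 20 pNE_T-only regions, and MEIS1 had 5 and 14. The MEIS1 window held 28 open regions in aNE_T, 24 in aNE_M and 25 in aNE_H against 37, 32 and 46 in the pNE-derived lists, and 25 in hPSC, 24 in DE, 23 in aNE and 30 in pNE. The MEIS2 window held 40 in aNE_T, 40 in aNE_M and 32 in aNE_H against 54, 44 and 68. At both genes each pNE-derived list was above each aNE-derived list, in counts not adjusted for the longer pNE_H list. Both genes were named because they were called toward pNE_T, so aNE_T and pNE_T are no separate evidence there. NR6A1, a nuclear receptor gene of 23 aNE_T-only and 8 pNE_T-only regions, was the exception, and with the upper 50% of each list by width it had 1 more on the pNE_T side. EGR2, a hindbrain segmentation gene, had 2 aNE_T-only regions and 0 pNE_T-only. Of 19 promoters of this list 1, of FGF3, had a peak in pNE_T only. The FGF3 window was not called, with 3 aNE_T-only and 2 pNE_T-only regions. Another 2 promoters, both of NR2F2, had a peak in aNE_T only, although the NR2F2 window was called toward pNE_T with 2 and 4.

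The widest pNE_T-only peak at MEIS2 was 1233 bp long, at chr15:36996800-36998032 within the gene, and was also open in pNE_H. At MEIS1 it was a 703 bp peak at chr2:66490178-66490880 within the gene, also open in aNE, pNE, pNE_M and pNE_H.

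Genes of retinoic acid handling were divided. Of 21 genes 5 were called toward aNE_T (23.8%) and 6 toward pNE_T (28.6%), beside 21% and 18.5% of all genes. At equal size 7 and 5 were called. RARB, a receptor gene that retinoic acid itself induces, had 14 aNE_T-only and 47 pNE_T-only regions. Its window held 48 open regions in aNE_T, 46 in aNE_M and 49 in aNE_H against 81, 75 and 132 in the pNE-derived lists. On days 0 to 2 the window held 35 in hPSC, 51 in DE, 36 in aNE and 58 in pNE. These counts are not adjusted for gene length or for the longer pNE_H list. RARB is longer than 100 kb. Of all genes of 100 to 300 kb 25.8% were called toward pNE_T, and of longer genes 35%. The degrading enzyme CYP26A1 had 3 and 7 and its neighbour CYP26C1, which shares most of the window, 3 and 8, while DHRS3, a retinaldehyde reductase, had 2 and 8. CYP26C1 turned to the aNE_T side in windows of 20 kb, by 2 regions. On the aNE_T side were STRA6, the retinol-binding protein receptor, with 7 aNE_T-only and 1 pNE_T-only regions, and the receptor partner RXRA with 12 and 5. Promoters of 3 of these genes went against their windows: a CYP26A1 and a DHRS3 promoter had a peak in aNE_T only, with pNE_T peaks 32 and 4 bp away, and a STRA6 promoter had a peak in pNE_T only, with an aNE_T peak 145 bp away.

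Rostral forebrain genes, the identity after which the medium is named, were called close to the level of all genes. Of 21 measured genes 5 were called toward aNE_T and 4 toward pNE_T, and 5 and 2 at equal size. LHX2 had 12 aNE_T-only and 2 pNE_T-only regions, OTX2 had 6 and 1, HESX1 had 5 and 1, FEZF1 had 7 and 3 and EMX2 had 4 and 2. In windows of 100 kb EMX2 turned to the pNE_T side by 3 regions. FEZF2, a factor of forebrain patterning, was on the pNE_T side with 1 and 6, as were DLX1, a factor of the ventral forebrain, with 2 and 6 and SIX3 with 3 and 6. DLX1 turned to the aNE_T side by 1 region with the upper 50% of each list by width. SIX3 was even at equal list size, with 4 and 4, and turned to the aNE_T side by 1 region when a list had to cover 50% of a region. The labels give only cell culture as tissue, and this group's shares, 23.8% and 19%, lay near the 21% and 18.5% of all genes.

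At LHX2 the window held 24 open regions in aNE_T and 14 in pNE_T, the lowest of the 10 lists. The others were 25 in hPSC, 24 in DE, 19 in aNE, 19 in pNE, 28 in aNE_M, 20 in aNE_H, 18 in pNE_M and 23 in pNE_H. The widest aNE_T-only peak, 1050 bp at chr9:124018273-124019322 within LHX2, was open in all lists but pNE_T. The 200 kb bin just before LHX2, chr9:123800001-124000000 in DENND1A, held 16 aNE_T-only and 1 pNE_T-only regions, and 17 and 3 between the midbrain lists.

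At OTX2 the window held 16 open regions in aNE_T, 17 in aNE_M and 16 in aNE_H, against 11 in pNE_T, 14 in pNE_M and 17 in pNE_H. There were 19 in hPSC, 20 in DE, 12 in aNE and 12 in pNE, so pNE_T was again the lowest list. The LHX2 and OTX2 windows were both called toward aNE_T, so their low pNE_T counts are no separate evidence. In hindbrain medium the aNE-derived list was not above the pNE-derived list at either gene. An 893 bp peak at chr14:56846973-56847865, from -42.2 to -41.3 kb of the printed start, was open in all lists but pNE_T. The printed promoter had a peak in every list but pNE_T and pNE_H.

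**Figure D5:**
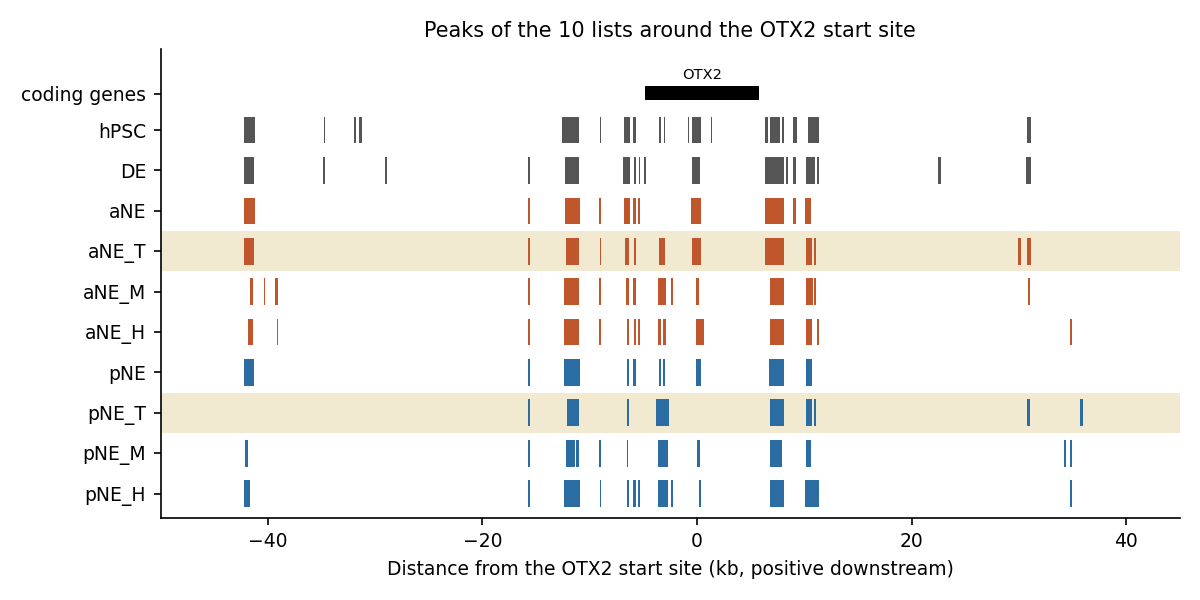
Peaks of the 10 lists by distance from the OTX2 start site in kb (positive downstream), with aNE_T and pNE_T shaded and the gene as a black bar. The pNE_T list lacks a peak at the start site and near -42 kb, has 9 peaks in the plotted span against 13 of aNE_T, and shares the wide peaks near -12 and 7 kb.

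Genes of the diencephalon, midbrain and midbrain-hindbrain boundary were also near the level of all genes. Of 22 genes 5 were called toward aNE_T (22.7%) and 4 toward pNE_T (18.2%), beside 21% and 18.5% of all genes. BARHL1, a diencephalic homeobox gene, had 8 aNE_T-only and 3 pNE_T-only regions, DMBX1 had 6 and 2, and WNT8B had 6 and 2. The IRX homeobox genes went both ways: IRX2 had 0 and 5 and IRX1 2 and 4, while IRX5 had 5 and 2 and IRX3 1 and 1.

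WNT pathway genes divided 7 to aNE_T and 8 to pNE_T of 30 (23.3% and 26.7%, beside 21% and 18.5% of all genes). At equal size they divided 8 and 6. The nuclear effector LEF1 had 6 aNE_T-only and 18 pNE_T-only regions, WNT7B had 2 and 10, and SFRP2, a secreted WNT inhibitor, 1 and 8. LEF1 held 37 open regions in pNE_T, 25 in pNE_M and 37 in pNE_H, and 25 in aNE_T, 35 in aNE_M and 35 in aNE_H, so the origins overlapped in the other media. A 1084 bp peak of pNE_T within LEF1, at chr4:108086938-108088021, was open in no other list. WNT4 lay on the aNE_T side with 7 and 2, as did TCF7L1, a repressor of WNT targets, with 7 and 3.

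FGF response genes were called toward aNE_T at 7 of 17 (41.2%) and toward pNE_T at 3 (17.6%), and at 7 and 1 at equal size. Over all genes the shares were 21% and 18.5%, or 28.9% and 12.2% at equal size. The median of pNE_T-only minus aNE_T-only regions was -1 against 0 over all genes. SPRED2, an inhibitor of the RAS to ERK cascade, had 17 aNE_T-only and 4 pNE_T-only regions, the receptor gene FGFR4 had 5 and 1, and the early response gene FOS had 5 and 1. SPRED1, of the same family, had 3 and 7, but 1 more on the aNE_T side with the upper 50% of each list by width. NODAL and BMP response genes were called at 2 of 16 toward aNE_T (12.5%) and 5 toward pNE_T (31.2%), but at 3 and 4 at equal size. SMAD6, which blocks BMP signals, had 12 and 4, and ID4, a BMP target, had 0 and 4.

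Axon guidance and adhesion genes, of median length 639 kb, were called toward pNE_T at 18 of 35 and toward aNE_T at 0, beside 35% and 4.33% of all genes over 300 kb. At equal size 13 and 4 were called, beside 21.1% and 8.8% of genes over 300 kb. The netrin receptor gene UNC5D had 10 aNE_T-only and 43 pNE_T-only regions, the synaptic adhesion gene NLGN1 had 11 and 55, and SEMA3D, a secreted guidance cue, had 1 and 13. UNC5D held 40 open regions in aNE_T, 40 in aNE_M and 38 in aNE_H against 73 in pNE_T, 40 in pNE_M and 86 in pNE_H, so the midbrain lists were level. Eph receptors, ephrins and cadherins, of median length 138 kb, were called toward pNE_T at 13 of 32 (40.6%) and toward aNE_T at 6 (18.8%). Of all genes of 100 to 300 kb 25.8% and 15.9% were called. At equal size 8 and 8 were called, beside 16.8% toward pNE_T and 25.8% toward aNE_T of genes of 100 to 300 kb. EPHA6, itself longer than 300 kb, had 1 aNE_T-only and 22 pNE_T-only regions, EFNB2 had 1 and 9 and CDH6 had 5 and 17. EPHA8 was on the other side with 10 and 1.

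Markers of other cell types were called as follows. Of 14 pluripotency genes 7 were called toward aNE_T and 3 toward pNE_T, as deposited and at equal size. L1TD1, an RNA-binding protein of pluripotent cells, had 7 aNE_T-only and 0 pNE_T-only regions, and NANOG had 3 and 1. Open regions at L1TD1 numbered 16 in hPSC, 14 in aNE_T and 7 in pNE_T, but 11 in aNE_M and 10 in aNE_H against 12 in pNE_M and 16 in pNE_H. At NANOG they numbered 19 in hPSC, 8 in aNE_T and 6 in pNE_T, and 12 and 11 against 11 and 16 in the other media. The promoters of NANOG and DPPA2 and 1 of the 2 of CRIPTO had a peak in aNE_T only. No promoter of this list had a peak in pNE_T only, although the DPPA2 window was called toward pNE_T with 1 and 3. TRIM71 was on the pNE_T side with 4 and 9. The defining gene POU5F1 had 2 and 1, and ZFP42 0 and 1. Neural ectoderm genes were called toward aNE_T and pNE_T at 2 and 3 of 18 (6 and 3 at equal size), and neuronal genes at 2 and 4 of 14 (3 and 2). Neural crest and surface ectoderm genes were called at 4 and 4 of 18 (6 and 2), and mesendoderm genes at 2 and 4 of 14 (6 and 2), so these 4 lists have no direction that holds at both sizes. Over all genes the shares were 21% and 18.5%, or 28.9% and 12.2% at equal size. Among neuronal genes NEUROG1 had 1 and 9 and ATOH1 1 and 5, but ATOH1 had 1 and 2 at equal size; DLL1 had 4 and 2 and NEUROD4 4 and 1. What these markers have to do with the other gene groups was not tested.

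Assigned to the gene they lie in, or else to the nearest gene end within 500 kb, 50378 aNE_T-only and 63093 pNE_T-only regions had a gene. The excess of aNE_T was largest at DAB1, an adaptor of reelin signalling, with 68 aNE_T-only and 27 pNE_T-only regions assigned. The kainate receptor gene GRIK3 followed with 39 and 13, and ZNF521, a factor of early neural conversion, with 37 and 15. The excess of pNE_T was largest at MAGI2, a synaptic scaffold gene, with 17 and 77, then at PTPRD, a receptor phosphatase, with 28 and 80, and UNC5D with 21 and 71. CHRM3, a muscarinic receptor gene, had 5 and 47. The others of the 10 ranked highest on the pNE_T side were GPC5, KIAA1217, LRP1B, CTNNA2, NLGN1 and MACROD2, and on the aNE_T side PLXNA2, IGSF21, PTPRT, HIVEP3, SOX6, JARID2 and PLXNA4.

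Per 100 kb of window the order was led by short genes. On the aNE_T side GUCA1B led with 12 aNE_T-only and 2 pNE_T-only regions, then ADRA2C with 11 and 2, and RCOR2, a corepressor partner of LSD1, with 10 and 0. EBI3 had 9 and 0 and LHX2 was the fifth. On the pNE_T side HOXB4 led, then PPP1R2B with 2 and 11. NEUROG1, MAB21L2 with 1 and 9, and TLX3, a homeobox gene of hindbrain and spinal neurons, with 0 and 8 were among the first 10; TLX3 had 1 more on the aNE_T side with the upper 50% of each list by width.

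In bins of 200 kb the net count (pNE_T-only minus aNE_T-only) ran from -16 to 20 with a median of 1 over 13334 bins. The bin at the SKAP2 side of HOXA, chr7:26800001-27000000, had 0 aNE_T-only and 17 pNE_T-only regions, and between the midbrain lists 0 and 16. The bin with the highest net count, chr8:106000001-106200000, held no coding gene and had 1 and 21; the nearest coding gene was OXR1, 70.2 kb away. On the aNE_T side the bin of SRGAP2 and FAM72A, chr1:206200001-206400000, had 20 and 4, the bin of SMAD6, chr15:66600001-66800000, had 19 and 3, and the bin of BCL11B, a cortical neuron factor, chr14:99200001-99400000, had 17 and 4.

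Over all 21155 promoters of 15100 coding genes, 493 had a peak in aNE_T only and 369 in pNE_T only, 15230 in both and 5063 in neither. Members held less G and C than shared promoters, with a mean of 54.6% ± 9.94 (SD over promoters) for aNE_T only and 52% ± 10.4 for pNE_T only against 65.4% ± 9.65 for both. Among listed genes a promoter each of OTX2, WNT8B, WNT8A, TCF7 and DPPA2 had a peak in aNE_T only, with no pNE_T peak within 2000 bp. That promoter of TCF7, a WNT effector, had a peak in no other day 4 list, but the other TCF7 promoter had a peak in both. The WNT8A promoter had a peak in every list but pNE_T. On the pNE_T side a promoter each of HOXB1, SMAD7, an inhibitor of TGF-beta signals, and WNT5B had no aNE_T peak within 2000 bp. The other WNT5B promoter had a peak in both lists. Of 3 BMP4 promoters 2 had a peak in both lists. The remaining BMP4 promoter had a peak in pNE_T and pNE_H alone, with an aNE_T peak 170 bp away.

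Letters known from factors of each side were counted on both strands of the promoter windows. TAATCC, the site of OTX factors, was found in 10.3% of aNE_T-only promoters and 4.88% of pNE_T-only promoters, against 4.89% of all. TAATTA, the core of many homeodomain sites, was found in 6.09% and 9.49%, against 3.2% of all, and AGGTCA, a nuclear receptor half-site, in 16.2% and 18.2%, against 10.4%. Promoters open in neither list, which also hold less G and C (49.3%), gave 7.98%, 6.81% and 16.3%. TGATTGAT, a site of PBX with HOX proteins, was found in 1 of 493 and 2 of 369 promoters (0.203% and 0.542%), against 0.317% of all. These numbers are too small to compare. The motifs share no full copy with each other. Among the printed stretches, HOXA2 holds 1 copy of TGATTGAT and WNT8B 1 copy of TAATTA. These matches are letters in a window and not shown to be bound.

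Hairpins of microRNAs also lay in members. Of 1461 RefSeq hairpins on chromosomes 1 to 22, 48 (3.29%) had a peak in aNE_T only and 34 (2.33%) in pNE_T only, 165 in both and 1214 in neither. The hairpins named here were chosen after their values were seen. The hairpins MIR302A, MIR302C, MIR302D and MIR367 on chromosome 4, of a cluster known from pluripotent cells, had a peak in pNE_T and none in aNE_T. At MIR302A no other list had a peak, and at MIR302C aNE_M and pNE_H did. At MIR302D and MIR367 the other 4 lists of midbrain and hindbrain medium did, those of anterior origin included. The lists of days 0 to 2, hPSC included, had none at any of the 4 hairpins. MIR9-2, a hairpin of the neural microRNA miR-9, had a peak in pNE_T over 87 bases and also in hPSC, pNE, aNE_H and pNE_H. MIR219A2, whose product is known from neural cells, had a peak in aNE_T over 97 bases and also in aNE, pNE, aNE_M and aNE_H, and in no pNE-derived list of day 4. The mature sequences show which products share a target-recognising seed (bases 2 to 8, in capitals): the 3 miR-302 products have the same seed.
hsa-miR-302a-3p: uAAGUGCUuccauguuuugguga
hsa-miR-302c-3p: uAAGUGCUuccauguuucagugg
hsa-miR-302d-3p: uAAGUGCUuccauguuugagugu
hsa-miR-367-3p: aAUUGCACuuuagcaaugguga
hsa-miR-9-5p: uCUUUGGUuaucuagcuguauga
hsa-miR-219a-5p: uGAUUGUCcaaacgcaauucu

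A peak over a hairpin says that the DNA is accessible there, and microRNA levels were not measured.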

How the data were processed

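The deposited values are peak positions of the authors, 1 list for each of 10 groups of 3 libraries, with sequence name, start and end and no score or fold. The submitters' processing notes name FastQC, Bowtie2, MACS2, bedtools, featureCounts, edgeR and deepTools and the build hg38. Their settings, the peak threshold and the way the 3 libraries were combined are not given in the sources used here, and a threshold that differed between lists would move every count. Read depth is unknown.

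Peaks on chromosomes 1 to 22 were merged across the 10 lists at an overlap of 1 bp. Genes, promoters and microRNAs came from RefSeq tables of GRCh38.p14; of 323 listed symbols 322 were matched on chromosomes 1 to 22. Some listed genes are counted with their list and not reported singly here. Starts were converted to count from 1. Calls used windows of 50 kb, at least 3 exclusive regions and 2 times the other list. Equal size kept the widest peaks, since no score was at hand.

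Named genes were the called or defining members of the gene lists, the 10 genes in each direction by assigned regions and by net regions per 100 kb of window (1 per group of overlapping windows, at least 5 exclusive regions), 5 bins of 200 kb in each direction, and promoters of listed genes; the text gives a selection of these. Named regions are the widest exclusive peaks in the windows of such genes. The members and the gene lists were chosen with earlier results of these data known. No test was run, because each group is 1 list. Wilson 95% intervals cover counting error only.

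The alternatives were other list sizes by width, 50% coverage, fixed windows of 500 bp, exclusion of gene ends and of regions near a peak of the other list, chromosomes X and Y, other gene windows, a call at 3 times the other list and 1 gene per group of windows. On simulated lists of 20000 regions the error in exclusive regions was 0, and window counts of 198 genes matched a direct count. Figures were drawn with matplotlib 3.10.9, intervals computed with statsmodels 0.14.6 and correlations with scipy 1.17.1, in Python 3.11.15 with pandas 2.3.3 over numpy 2.4.6.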

Additional observations from a re-analysis of the deposited data

Results flagged for a closer look

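The balance of aNE_T-only regions, the share open in the aNE-derived list alone minus the share open in the pNE-derived list alone, had opposite signs in the other media: 24.6 points in midbrain medium and -7.46 points in hindbrain medium. The difference between the media was not tested, and with all 10 lists at 1 size it was 22 and 14.1 points.

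Peaks on sequences other than chromosomes 1 to 22, X and Y entered no comparison. They made up 4.81% of the aNE_T list (9992 peaks) and 4.49% of the pNE_T list (10121 peaks).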

How the results depend on the processing

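No paired analysis was possible because each group is 1 list, and for the same reason no library could be left out; depth is unknown. The exclusive regions stayed within 1.5 times 52029 and 67434 except with the upper 50% of each list by width, which left 27446 and 35297. The origin balance in midbrain medium kept its sign in all 8 alternatives. For aNE_T-only regions (24.6 points) it was 22 with all 10 lists at 1 size and 26.7 at 50% coverage. For pNE_T-only regions (-14) it was -15.9 at equal size of the 2 lists and of all 10, -15 with the upper 50% by width, -8.61 at 50% coverage, -14.9 with fixed windows and -14.8 without regions near a peak of the other list. Genes called toward aNE_T (4025) numbered 2569 with the upper 50% by width, 2367 in windows of 20 kb and 1778 at 1 gene per group of windows. Genes called toward pNE_T (3535) numbered 2325 and 2255 at equal size of 2 and of 10 lists, 2316 at 3 times the other list and 2100 at 1 gene per group of windows. HOX genes called toward pNE_T (29 of 39) numbered 19 with fixed windows, 19 without gene ends, 16 in windows of 20 kb and 15 at 3 times. The cause of these shifts was not tested, beyond fewer peaks, smaller windows or a stricter call by construction.

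The difference in window counts of 57 named genes (pNE_T-only minus aNE_T-only regions) was recomputed under 10 alternatives. Of these values 522 stayed within the counting interval of the value as deposited, 41 moved beyond it, and 7 changed sign at a called gene. With the upper 50% by width the differences became -1 for DLX1, -1 for SPRED1, -1 for TLX3 and 1 for NR6A1. They became -1 for SIX3 at 50% coverage, -2 for CYP26C1 in windows of 20 kb and 3 for EMX2 in windows of 100 kb.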
